A study of Mus musculus with 12 samples.

Results

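RNA levels of 36 genes of the amino acid response and the unfolded protein response were followed in cultures and tumors of the mouse line 4T1. The genes are the rows of the deposited tables whose symbol is on a list of ATF4 targets, amino acid genes and endoplasmic reticulum (ER) chaperones, and each of the 36 symbols matched a row of the 39017. By role they are 5 transcription factors, 5 stress effectors, 6 enzymes of serine, one-carbon and asparagine synthesis, 4 amino acid transporters, 3 tRNA synthetases, 9 ER chaperones or folding enzymes, and 4 genes for Xbp1 and ER-associated degradation. The first 5 roles hold 23 genes, and the last pair, called the ER genes here, holds 13.

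4T1 is a mammary carcinoma line that is used as a model of triple-negative breast cancer. The 12 libraries fall into 4 groups of 3: cultures with the genotype POGZ KO, cultures with the genotype POGZ VC, and tumors of each. What VC stands for is not spelled out in the labels, and the series design sets it against the knockout, so it is treated as the control. Cultures grew in DMEM with 10% FBS and were taken at 75% confluency. For the tumors, 50000 cells were placed in a mammary fat pad of 8-week-old BALB/c mice and left to grow for 28 days. No further treatment is given for any group. Nothing says that the libraries of a group are separate clones or cultures, so each p measures only the spread between these libraries, which may be technical.

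When amino acids run short or proteins misfold in the ER, kinases phosphorylate the initiation factor eIF2. General translation then falls while the mRNA of the transcription factor ATF4 is translated more. ATF4 switches on genes for amino acid synthesis, uptake and tRNA charging, and it pairs with C/EBP proteins on a composite DNA element. ER stress also activates ATF6 and the splicing of Xbp1, which raise chaperones and degradation genes through ER stress elements (ERSE). Cancer cells use the ATF4 branch to feed growth, and secretory cells such as plasma cells rely on XBP1.

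The promoters of 32 of the 36 genes matched the RefSeq table (GRCm38.p6, 250 bases before to 50 after the start). The letters of the composite element, TGATGNAA on either strand, lay in 7 of 21 promoters of the genes outside the ER (33.3%), in 1 of 11 ER promoters (9.09%), and in 1219 of all 27025 promoters (4.51%). The ERSE letters, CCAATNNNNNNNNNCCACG on either strand, lay in 4 of 11 ER promoters (36.4%) and 0 of the other 21, against 37 of all promoters (0.137%). The ERSE-II letters, ATTGGNCCACG, lay in 1 of 11 ER promoters (9.09%) and in 12 of all promoters (0.0444%). No match overlapped one of another motif. The stretches below are shown to let the matches be read in their context. Trib3, whose composite match lies past the start, and Hsp90b1, whose 2 ERSE matches lie far apart, are not printed. They are written 5′ to 3′ on the strand of the gene, with the matched letters in capitals. A match is a description of the letters and not evidence of binding.
Asns, chr6:7693214-7693243, minus strand: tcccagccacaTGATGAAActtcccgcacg
Slc7a11, chr3:50443638-50443694, minus strand: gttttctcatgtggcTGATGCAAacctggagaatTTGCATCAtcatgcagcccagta
Chac1, chr2:119351034-119351071, plus strand: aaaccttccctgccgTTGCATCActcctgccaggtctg
Atf3, chr1:191183421-191183458, minus strand: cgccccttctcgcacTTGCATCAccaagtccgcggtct
Gars, chr6:55037956-55037993, plus strand: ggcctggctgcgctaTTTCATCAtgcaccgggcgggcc
Vldlr, chr19:27216805-27216842, plus strand: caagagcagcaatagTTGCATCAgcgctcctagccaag
Hspa5, chr2:34772020-34772048, plus strand: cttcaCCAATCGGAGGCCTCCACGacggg
Pdia6, chr12:17266476-17266524, plus strand: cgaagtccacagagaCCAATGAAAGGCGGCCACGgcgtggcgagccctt
Creld2, chr15:88819505-88819553, plus strand: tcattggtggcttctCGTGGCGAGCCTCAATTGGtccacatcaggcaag
Herpud1, chr8:94386302-94386402, plus strand: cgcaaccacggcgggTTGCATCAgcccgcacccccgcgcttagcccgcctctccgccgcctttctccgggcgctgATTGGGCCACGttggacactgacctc

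By GENCODE M21 on the same assembly, the stretches of Asns and Hspa5 lie in an annotated exon of their own gene, and those of Atf3 and Vldlr in an intron of it. The Herpud1 stretch lies in an intron of Gm15890, and the rest lie outside annotated genes. Herpud1, an ER membrane protein of the degradation machinery, held both the composite and an ERSE-II match, and Slc7a11 held the composite match 2 times.

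Total counts ran from 14724518 to 21863223 in the 6 cultures and from 4712001 to 13043831 in the 6 tumors, where the control-labelled libraries were the 3 smallest. Levels are given as CPM, the count of a gene scaled by the total of its library. Pogz RNA went against the label in culture, with 68.3 ± 0.428 CPM (SD, n = 3) in knockout-labelled and 50.3 ± 2.03 CPM in control-labelled cells. The edited site and the protein level are not given in the sources used here. Groups are therefore named by their labels, and each direction below is that of the labels. In tumors Pogz stood at 99.3 ± 11.9 and 107 ± 23.4 CPM (SD, n = 3). A sum of 8 carcinoma epithelium markers lay between 2918 and 3316 CPM in cultures and between 1690.4 and 2333 CPM in tumors, with no marker at 0. Fibroblast markers summed to at most 45.0 CPM in cultures and at least 2938 CPM in tumors, and macrophage markers to at most 49.2 and at least 771 CPM, so tumors also hold host cells.

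In culture, most of the amino acid and ER stress genes were lower in the knockout-labelled cells. Of the 36 genes, 25 fell and 2 rose (edgeR, Benjamini-Hochberg adjusted p under 0.05), and 9 did not pass. Calls were common in this comparison: 24.9% of all 15705 genes tested fell, 23.0% rose and 47.9% were called either way. The median log2 fold change of the 36 genes was -0.29, beside -0.013 for all genes tested. It was -0.48 for the 23 genes outside the ER, of which 15 fell and 2 rose, and -0.22 for the 13 ER genes, of which 10 fell. Changes over 2-fold were called for 4 of the 36 genes, and for 4.86% of all genes.

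**Figure D1:**
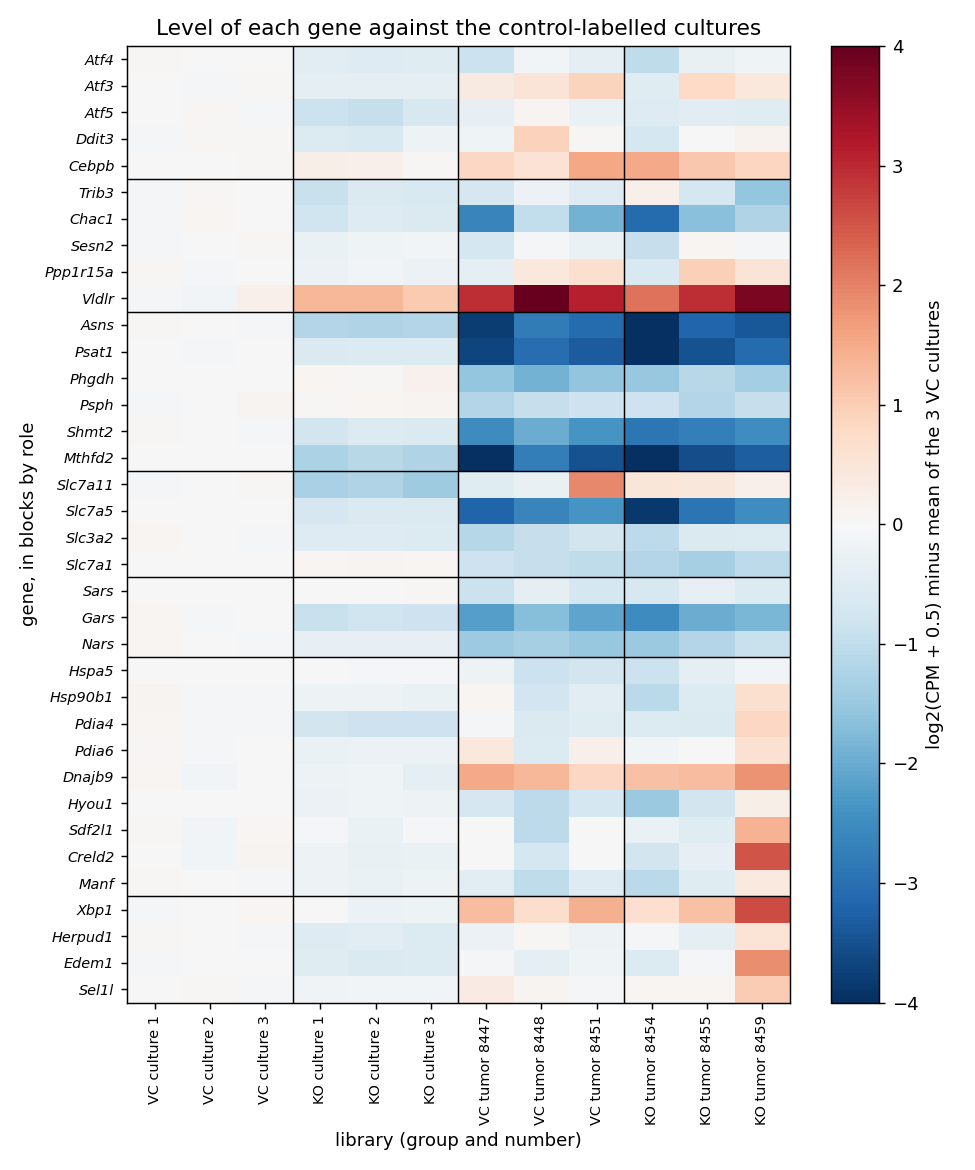
Level of each of the 36 genes in each of the 12 libraries, as log2(CPM + 0.5) minus the mean of the 3 control-labelled (VC) cultures. Rows are grouped by role, columns by group, and values beyond the ends of the colour scale take the end colours. The knockout-labelled (KO) cultures are paler blue in most rows. The synthesis enzymes are blue in all 6 tumors, and palest for Phgdh and Psph. Tumor POGZ_KO_8459 lies above the control-labelled cultures for the ER genes other than Hspa5, and some of these gaps are small, as for Hyou1.

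Among the transcription factors, Atf4 itself stood at 143, 136 and 136 CPM in control-labelled cultures and at 102, 96.8 and 97.8 CPM in knockout-labelled cultures. The groups did not overlap, and its log2 fold change was -0.48 ± 0.04 (SE; edgeR, adjusted p = 1.59e-06). Much of the control of ATF4 is translational and is not read by RNA. Atf5, a related factor that is also translated under stress, went from 35.1, 36.3 and 33.4 CPM to 19.1, 18.1 and 22.3 CPM, a log2 fold change of -0.80 ± 0.08 (adjusted p = 3.49e-06). Atf3, an early stress factor, changed by -0.39 ± 0.07, and Ddit3, which encodes the death-linked factor CHOP, by -0.43 ± 0.10. The remaining factor moved the other way: Cebpb, a C/EBP partner of ATF4, had a log2 fold change of 0.18 ± 0.06 (adjusted p = 0.0373). That call was lost without knockout-labelled culture 1 or 2 (adjusted p = 0.109 and 0.12) or without control-labelled culture 2 (0.104), with the replicate block (0.0519) and with DESeq2 (0.065), and in 8 of 15 alternatives in all.

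Of the stress effectors, Trib3, a pseudokinase that restrains ATF4, stood at 15.1, 16.2 and 16.1 CPM in control-labelled cultures and at 8.23, 10.4 and 10.2 CPM in knockout-labelled ones. Chac1, which degrades glutathione, stood at 8.92, 9.71 and 9.08 against 5.16, 6.32 and 5.99 CPM. Neither pair of groups overlapped, and the log2 fold changes were -0.71 ± 0.09 for Trib3 and -0.66 ± 0.11 for Chac1 (adjusted p = 4.85e-05 and 0.000269). Vldlr, a lipoprotein receptor that ATF4 can induce, was barely detected in control-labelled cultures at 0.226, 0.215 and 0.378 CPM. It reached 1.45, 1.43 and 1.10 CPM in knockout-labelled ones, a log2 fold change of 2.23 ± 0.33 (adjusted p = 0.000121). Sesn2, a leucine-sensing inhibitor of mTORC1, did not pass at -0.18 ± 0.09 (adjusted p = 0.122). Ppp1r15a, the GADD34 subunit that directs the phosphatase back to eIF2, did not pass either at -0.19 ± 0.08 (adjusted p = 0.063).

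Of the synthesis enzymes 4 fell and 2 did not pass. Asns (ENSMUSG00000029752, chr6:7675169-7693254, minus strand), asparagine synthetase, stood at 204, 197 and 189.8 CPM in control-labelled cultures and at 87.1, 85.8 and 87.2 CPM in knockout-labelled ones. Mthfd2 (ENSMUSG00000005667, chr6:83305691-83325908, minus strand), a mitochondrial folate enzyme, stood at 125, 124 and 125 against 51.8, 56.9 and 54.4 CPM. The groups lay far apart for both, with log2 fold changes of -1.17 ± 0.04 and -1.19 ± 0.04 (adjusted p = 7.15e-10 and 8.2e-10). Psat1, the aminotransferase of the serine pathway, changed by -0.55 ± 0.04, from 309 ± 6.52 to 211 ± 3.00 CPM (SD, n = 3). Shmt2, which passes the one-carbon unit of serine to folate in mitochondria, changed by -0.62 ± 0.05, from 237 ± 8.36 to 154 ± 9.72 CPM. The first and last enzymes of serine synthesis did not pass: Phgdh had a log2 fold change of 0.12 ± 0.06 (adjusted p = 0.13) and Psph of 0.08 ± 0.06 (adjusted p = 0.363).

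Slc7a11 (ENSMUSG00000027737, chr3:49892526-50443614, minus strand), the cystine importer xCT, had the most negative log2 fold change of the 36 genes. It stood at 34.3, 35.8 and 36.3 CPM in control-labelled cultures and at 14.0, 15.1 and 13 CPM in knockout-labelled ones, a log2 fold change of -1.33 ± 0.07 (adjusted p = 1.81e-08). Slc7a5, the light chain of the leucine transporter LAT1, changed by -0.60 ± 0.04, and Slc3a2, the heavy chain that Slc7a5 and Slc7a11 share, by -0.52 ± 0.05 (adjusted p = 1.93e-07 and 1.72e-06). Slc7a1, an importer of arginine and lysine, did not pass (0.09 ± 0.04, adjusted p = 0.0563). Of the tRNA synthetases, Gars, for glycine, stood at 369.6, 341 and 349 CPM and at 190.4, 203 and 198 CPM, a log2 fold change of -0.83 ± 0.04 (adjusted p = 2.12e-08). Nars, for asparagine, changed by -0.33 ± 0.04 (adjusted p = 6.05e-05), while Sars, for serine, stayed near the control level at 0.02 ± 0.04 (adjusted p = 0.612).

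Among the ER genes, 10 of 13 fell and the median was -0.22. Hspa5, which encodes BiP, the most used readout of ER stress, stood at 1321, 1292 and 1337 CPM in control-labelled cultures and at 1315, 1278 and 1263 CPM in knockout-labelled ones. The groups overlapped, and the log2 fold change was -0.03 ± 0.04 (adjusted p = 0.623). The widest gap was that of Pdia4, a disulfide isomerase, at 292, 268 and 265 against 165, 155 and 155 CPM (-0.79 ± 0.05, adjusted p = 8.02e-08). Hsp90b1, Pdia6, Dnajb9, Hyou1, Creld2 and Manf, chaperones, disulfide isomerases and their helpers in the ER, had called log2 fold changes from -0.26 to -0.21. Some of these calls rested on single libraries. Dnajb9 lost its call without knockout-labelled culture 3 (adjusted p = 0.133) or control-labelled culture 1 or 3 (0.0855 and 0.0534), and Creld2 without knockout-labelled culture 3 (0.0545) or control-labelled culture 3 (0.0587). Sdf2l1, a partner of BiP, did not pass (-0.11 ± 0.09, adjusted p = 0.34).

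Xbp1, whose spliced form is the transcription factor of the IRE1 branch, did not pass in culture (-0.13 ± 0.06, adjusted p = 0.118), and the counts do not tell the spliced form from the unspliced one. Herpud1 stood at 40.0, 38.6 and 37.5 CPM and at 27.2, 28.3 and 26.1 CPM, a log2 fold change of -0.50 ± 0.06 (adjusted p = 1.34e-05). Edem1, which hands misfolded glycoproteins to degradation, stood at 122, 127 and 128 CPM and at 88.8, 84.0 and 86.1 CPM (-0.54 ± 0.04, adjusted p = 4.86e-07). Sel1l, the scaffold of the degradation complex, was called at -0.11 ± 0.04 (adjusted p = 0.0324), and 11 of 15 alternatives lost that call. Among them were RLE scaling (adjusted p = 0.0524), no filter (0.0714), DESeq2 (0.116), the replicate block (0.0638) and 5 of 6 leave-one-out fits (0.0813 to 0.148).

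**Figure D2:**
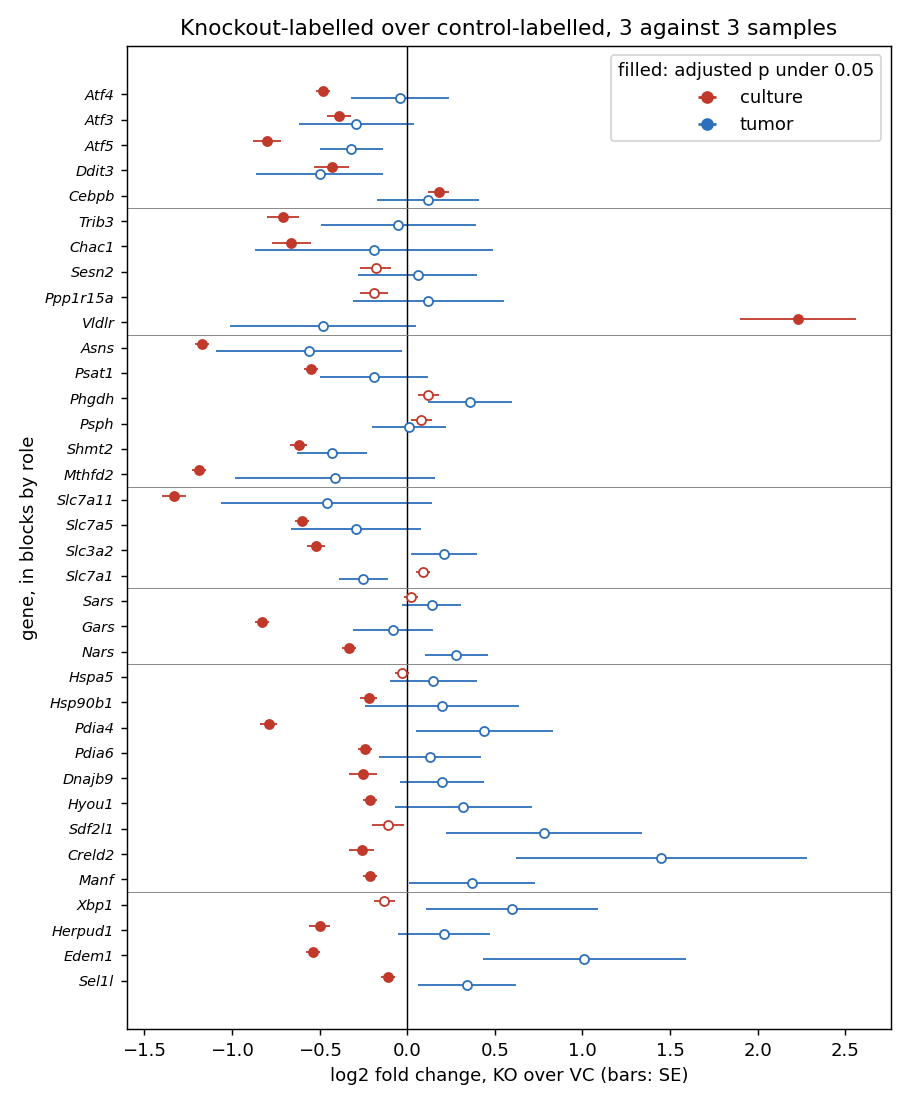
Log2 fold change of knockout-labelled over control-labelled samples for each of the 36 genes in cultures (red) and in tumors (blue), 3 against 3 samples, with bars of 1 SE and filled points where the edgeR adjusted p was under 0.05. In culture 25 filled points lie left of 0 and 2 right of it, and in tumors no point is filled and the bars are wider.

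Whole chromosomes differed between the culture groups, and this touched several of these genes. The median gene of chromosome 6 had a log2 fold change of -0.45, and Asns, Mthfd2, Gars, Pdia4 and Edem1 lie there. On chromosome 3, with Phgdh, Slc7a11 and Sars, the median was 0.33, and on chromosome 2, with Cebpb, Trib3, Chac1 and Hspa5, it was 0.25. Sesn2 lies on chromosome 4, whose median was -0.28. Pogz, with a log2 fold change of 0.45 ± 0.04 in culture, lies on chromosome 3 with its median of 0.33. With the median of each chromosome taken out, 28 of the 36 genes fell and 1, Vldlr, rose, and 25 of the 27 calls remained. Of all 15705 genes, 40.2% were then called either way, against 47.9% before. Asns was then at -0.72 and Mthfd2 at -0.74 (adjusted p = 4.6e-08 and 5.22e-08), Gars at -0.38, Pdia4 at -0.33 and Slc7a11 at -1.66. Edem1 and Cebpb lost their calls (-0.084 and -0.07, adjusted p = 0.124 and 0.414). Hspa5, Sars, Phgdh and Sdf2l1 gained one (-0.27, -0.30, -0.21 and -0.26, adjusted p = 0.000218, 3.34e-05, 0.0151 and 0.0369), with Sars and Phgdh on the other side of 0. What lies behind the chromosome medians was not tested.

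Other genes of the same pathways were counted from 4 further lists. Of 27 other ATF4 targets and amino acid genes that passed the filter (of 32 listed), 18 fell and 5 rose, with a median of -0.22. Of all genes tested, 24.9% fell and 23.0% rose. Aldh18a1, which makes the proline precursor, fell from 128 ± 2.62 to 66.9 ± 3.10 CPM (SD, n = 3), and Gpt2, a mitochondrial alanine aminotransferase, from 67.4 ± 2.08 to 33.1 ± 1.58 CPM. Ddit4, an inhibitor of mTORC1 that hypoxia also induces, rose from 82.6 ± 5.08 to 135 ± 1.32 CPM. Among 17 other cytosolic tRNA synthetases, 12 fell and 0 rose (median -0.25), with log2 fold changes of -0.64 for Yars, -0.60 for Cars and -0.53 for Aars. Yars lies on chromosome 4, with its median of -0.28, and kept its call in all 15 alternatives.

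Of 16 sensors and eIF2 genes, 5 fell and 3 rose (median -0.09), beside 24.9% and 23.0% of all genes, and the 3 with the smallest p were Ern1, the sensor IRE1 (-0.50 ± 0.05), Ppp1r15b, a constitutive eIF2 phosphatase subunit (-0.43 ± 0.04), and Atf6b, a relative of ATF6 (-0.41 ± 0.04). Of 37 other ER chaperones and degradation genes, 13 fell and 11 rose (median -0.07). Ero1l, the oxidase that recharges disulfide isomerases, changed by -0.56 ± 0.04. Ssr3, a translocon subunit on chromosome 3, changed by 0.47 ± 0.04, and Sec61a1, the translocon channel on chromosome 6, by -0.44 ± 0.04. With the chromosome medians out Ssr3 was at 0.14 and Sec61a1 at 0.016 (adjusted p = 0.0123 and 0.794). Medians of all 4 lists lay below that of all genes tested, and the smallest gap to it was that of the ER list.

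The lowest numbers of culture calls came from 2 of the alternatives. Tested against a fold change of 1.2, 16 of the 36 genes were called (19.6% of all genes), 15 lower and 1 higher. In 1 fit with the tumors, whose libraries scatter more, 5 were called (8.15% of all genes), namely Atf5, Shmt2, Slc3a2, Gars and Vldlr. The log2 fold changes hardly moved in that fit, with a median of -0.31 and Atf4 at -0.49.

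In tumors, none of the 36 genes was called between the labels (edgeR, Benjamini-Hochberg adjusted p), and 0 passed an unadjusted p under 0.05. The same test called 0.0% of all 17153 genes, with 956 at an unadjusted p under 0.05, DESeq2 called 66 genes and limma-voom 0, and none of those were among the 36. Standard errors were several times wider than in culture, for example 0.28 against 0.04 for Atf4 and 0.53 against 0.04 for Asns. Atf4 stood at 76.0, 129 and 108 CPM in control-labelled tumors and at 68.1, 113 and 124 CPM in knockout-labelled ones (-0.04 ± 0.28). Asns stood at 13.8, 27.9 and 23.1 and at 4.53, 21.5 and 18.4 CPM (-0.56 ± 0.53), so a change as large as that in culture lay within 2 SE of the tumor value. Groups did not overlap for 3 genes. Phgdh was higher in the knockout-labelled tumors (4.96% of all genes were higher without overlap), and Atf5 and Slc7a1 were lower (5.43%).

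Single tumors stood out from both groups. Knockout-labelled tumor POGZ_KO_8454 was the lowest of the 6 tumors for 20 of the 36 genes, with 3.30 CPM of Mthfd2 and 0.660 CPM of Chac1. Control-labelled tumor POGZ_VC_8448 was the highest for 10 of the 23 genes outside the ER. The shares of all genes that were lowest or highest in a given tumor were not counted. Slc7a11 stood at 135 CPM in control-labelled tumor POGZ_VC_8451, at 25.3 and 28.8 CPM in the other control-labelled tumors, and at 49.5, 48.2 and 40.9 CPM in the knockout-labelled ones. Without tumor POGZ_VC_8451 its log2 fold change went from -0.46 to 0.78.

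All 13 ER genes had tumor log2 fold changes above 0, with a median of 0.34, while the other 23 had a median of -0.19 and all genes tested 0.019. Those values rested on 1 library. Creld2 stood at 22.1, 13.3 and 22.3 CPM in control-labelled tumors and at 12.8, 17.2 and 126 CPM in knockout-labelled ones. Edem1 stood at 122, 98.5 and 111 and at 85.2, 121 and 454 CPM. The third knockout-labelled value of each is that of tumor POGZ_KO_8459, and the other knockout-labelled tumors did not exceed the highest control. Xbp1 stood at 136, 92.5 and 155 and at 91.7, 129 and 354 CPM, and Hsp90b1 at 1656, 913 and 1177 and at 737, 1069.9 and 2465 CPM.

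Tumor POGZ_KO_8459 was the highest of the 6 tumors for all 13 ER genes, against 2 of the other 23. The ER genes lay from 0.54 to 2.83 above the median of the other 5 tumors on the log2 scale, with a median of 0.95, where all genes tested had a median of -0.02. Without that tumor, 0 of the 13 ER genes had a log2 fold change above 0 and their median was -0.14, with Creld2 at -0.36, Edem1 at -0.11, Xbp1 at -0.22 and Sdf2l1 at -0.096.

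Of the 13 marker lists, 4 had their highest sum in that tumor: those of B and plasma cells, macrophages and monocytes, T and NK cells, and mammary luminal and milk genes. The B and plasma cell sum over 9 genes was 1382 CPM, beside 4.44 to 30.5 CPM in the other 5 tumors, and all 9 were above 0. The J chain of antibodies, Jchain, reached 1017 CPM against 0.480 to 22.2 CPM, the plasma cell chaperone Mzb1 83.1 CPM against 0 to 0.307 CPM, and the B cell coactivator Pou2af1 153 CPM against 0.399 to 2.55 CPM. Ighg1, an antibody heavy chain, reached 5817 CPM against 1.32 to 23.8 CPM. The macrophage sum was 2316 CPM against 771 to 1624 CPM, with the mannose receptor Mrc1 at 863 CPM against 152 to 284 CPM. Adgre1, Csf1r, Cd68 and Ms4a7 were also highest in that tumor, while C1qa, C1qb, C1qc, Lyz2 and Trem2 were higher in another tumor. Lyz2, for example, was at 509 CPM against 607 CPM in POGZ_KO_8454, and C1qa at 236 CPM against 249 CPM in POGZ_VC_8447. The T and NK cell sum was 133 CPM against 38.5 to 64.3 CPM. The mammary luminal and milk sum was 1082 CPM against 746 to 852 CPM. Within it the casein Csn2 reached 229.6 CPM against 0.133 to 32.4 CPM, Csn1s1 132 CPM against 0 to 39.4 CPM, and the milk protein gene Lalba 8.62 CPM against 0 to 1.46 CPM. Csn3, Wap, Prlr and Elf5 were also highest in that tumor, while Krt18, Krt8 and Esr1 were not. Krt18 was lowest there at 370.3 CPM against 459 to 561 CPM, Krt8 was at 206 against 204 to 236 CPM, and Esr1 at 31.4 against 30.7 to 52.1 CPM. These single markers were chosen after their values were seen. Derl3, 1 of the 9 B and plasma cell markers, is also on the list of other ER genes. The part of any of these cell types in the ER values was not tested. In bulk tissue, fewer cells of a type and less RNA per cell cannot be told apart.

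**Figure D3:**
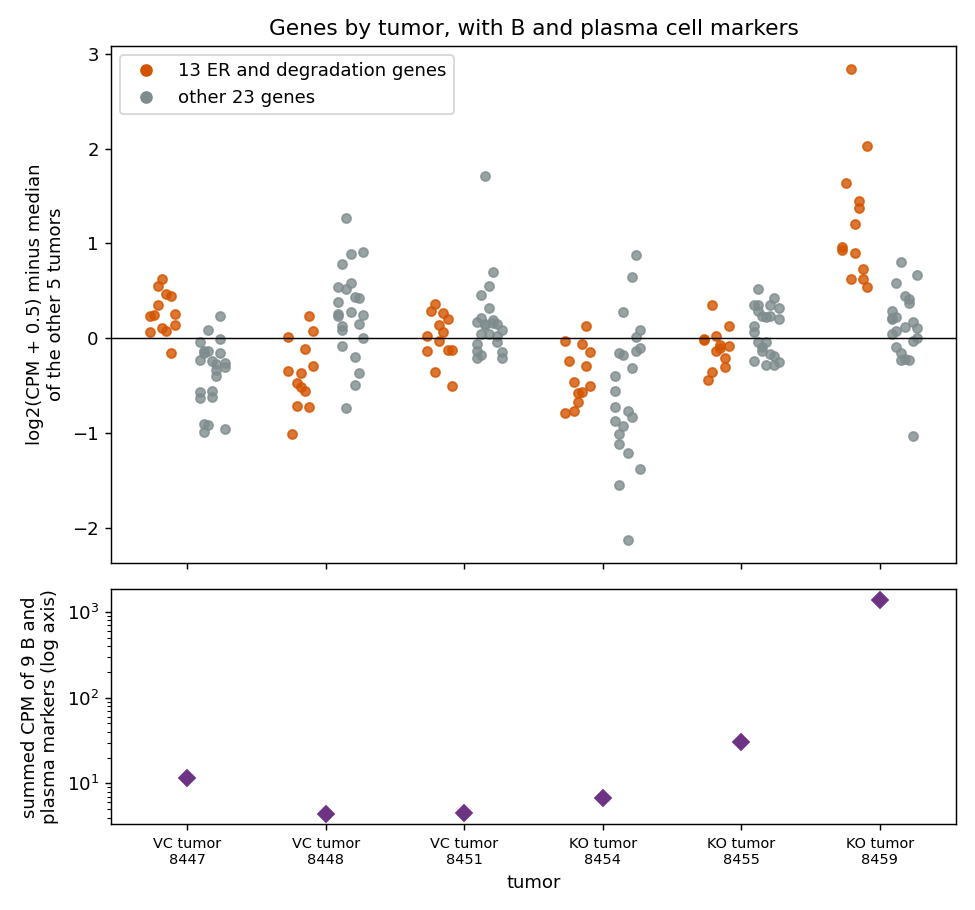
Top, log2(CPM + 0.5) of each gene in each tumor minus the median of the other 5 tumors, for the 13 ER genes (orange) and the other 23 (grey), 1 point per gene. Bottom, the summed CPM of 9 B and plasma cell markers per tumor on a log axis. In tumor POGZ_KO_8459 all orange points lie above 0 and the marker sum is 1382 CPM.

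The labels' effect was then compared between tumors and cultures as an interaction in 1 fit of the 12 libraries. None of the 36 genes was called, while 2.05% of all 18419 genes were, and 9 of the 36 passed an unadjusted p under 0.05, as did 2831 of the 18419. The value was above 0 for 31 of them (median 0.45, all genes 0.028), which means that the tumor log2 fold change was less negative or more positive than that in culture. Slc3a2 had a difference of 0.73 ± 0.19 (adjusted p = 0.0897), Gars of 0.75 ± 0.23 (0.138) and Nars of 0.61 ± 0.18 (0.126). Vldlr went the other way at -2.72 ± 0.73 (0.0949).

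These differences depended on single tumors. Without tumor POGZ_KO_8454, 6 genes were called: Slc3a2, Gars, Nars, Asns and Edem1 above 0 (0.86, 0.93, 0.74, 1.02 and 1.93) and Vldlr below 0 (-2.40). Calls over all genes rose along with these, from 377 to 1588 (8.31%). Without control-labelled tumor POGZ_VC_8451, Slc7a11 alone was called, at 2.12 (adjusted p = 0.000407). Without tumor POGZ_KO_8459, Vldlr alone was called, at -3.27, and the median of the ER genes went from 0.58 to 0.06. DESeq2 called Vldlr and Slc3a2.

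Among the 29 other ATF4 targets and amino acid genes in that fit, 2 were called, both outside the rule for named genes and chosen after their values were seen. Got1, an aspartate aminotransferase, went from 75.5, 77.7 and 82.1 to 57.5, 56.2 and 54.6 CPM in culture, and from 35.7, 28.7 and 34.3 to 36, 42.3 and 45.8 CPM in tumors. It fell in culture. In tumors the knockout-labelled values lay above the controls without overlap, but only by 36 against 35.7 CPM at the nearest. Of all genes, 4.96% were higher there without overlap. The tumor test called no gene, with an adjusted p of 0.861 for Got1 (edgeR). The difference of the effects was 0.82 ± 0.16 (interaction test, adjusted p = 0.0212). Nupr1, a small chromatin protein induced by stress, stood at 37.1, 36.3 and 31.4 against 39.1, 40.7 and 40.4 CPM in culture, and at 75.1, 78.1 and 66.2 against 46.0, 52.4 and 32.9 CPM in tumors (-0.94 ± 0.20, adjusted p = 0.0366).

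Tumors were also compared with cultures of the same label. In control-labelled samples 18 of the 36 genes were lower in tumors and 5 higher, beside 29.5% and 35.7% of all 17123 genes (edgeR, Benjamini-Hochberg adjusted p under 0.05). All 6 enzymes of serine, one-carbon and asparagine synthesis were lower, with a median of -2.71. Mthfd2 went from 125, 124 and 125 CPM to 5.09, 18.1 and 10.6 CPM (-3.40 ± 0.33), Psat1 from 315, 302 and 312 to 24.0, 36.9 and 30.4 CPM (-3.33 ± 0.16), and Asns from 204, 197 and 189.8 to 13.8, 27.9 and 23.1 CPM (-3.16 ± 0.22). These 3 gaps were many times the spread of the libraries (adjusted p = 6.5e-05, 2.55e-06 and 1.41e-05). Shmt2, Phgdh and Psph followed at -2.27 ± 0.15, -1.73 ± 0.14 and -0.99 ± 0.14. Slc7a5 was lower by a like amount (-2.70 ± 0.20), and so were all 3 tRNA synthetases of the set, with Gars at -1.99 ± 0.14. All 17 further tRNA synthetases were lower as well.

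The higher genes were Vldlr (4.95 ± 0.50), Dnajb9 (1.26 ± 0.17), Xbp1 (1.16 ± 0.18), Cebpb (1.06 ± 0.24) and Atf3 (0.63 ± 0.16). Cebpb was at 0.67 without tumor POGZ_VC_8451. Of the 13 ER genes 4 were lower, namely Hyou1, Manf, Hspa5 and Pdia4 (from -0.81 to -0.36). Pdia4 lost its call in 9 of 13 alternatives, 5 of them leave-one-out fits, Hspa5 without control-labelled culture 1 or 3, and Trib3, lower at -0.47 ± 0.15, without control-labelled culture 1, 2 or 3 or tumor POGZ_VC_8451. Without tumor POGZ_VC_8447 Pdia4 was at -0.57. Chac1 was lower at -1.77 ± 0.37, while Atf4 did not pass (-0.40 ± 0.18, adjusted p = 0.083).

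In knockout-labelled samples 11 genes were lower in tumors and 7 higher, beside 26.0% and 35.3% of all 17311 genes. All 6 synthesis enzymes were lower here too, with Psat1 at -2.93 ± 0.26, Mthfd2 at -2.61 ± 0.41, Asns at -2.50 ± 0.48 and Shmt2 at -2.04 ± 0.13. Slc7a11 was higher in each tumor, at 49.5, 48.2 and 40.9 CPM against 14.0, 15.1 and 13 CPM in culture (1.77 ± 0.12, adjusted p = 7.65e-05). In control-labelled samples its value was 0.85 ± 0.58 and did not pass (adjusted p = 0.228), and the difference between the labels was not called (0.86 ± 0.69, adjusted p = 0.603). Vldlr, Xbp1, Dnajb9, Cebpb, Herpud1 and Atf5 were the other higher genes (2.27, 1.94, 1.76, 1.06, 0.64 and 0.39).

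Tumor POGZ_KO_8459 weighed on the ER genes here as well. Without it Xbp1 was at 1.06 (adjusted p = 0.00429), Herpud1 at 0.26 (0.079) and Atf5 at 0.32 (0.0805), and 16 genes were called lower and 5 higher. Herpud1 also lost its call without knockout-labelled culture 1, 2 or 3 or tumor POGZ_KO_8454, and Atf5 without knockout-labelled culture 1 or 2 or tumor POGZ_KO_8455. Without tumor POGZ_KO_8454, 15 genes were called higher and 12 lower. Both comparisons set cultures of 1 cell line against tissue with host cells, so their values mix the carcinoma cells with the cells around them, and they share their libraries with the comparisons of the labels.

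**Figure D4:**
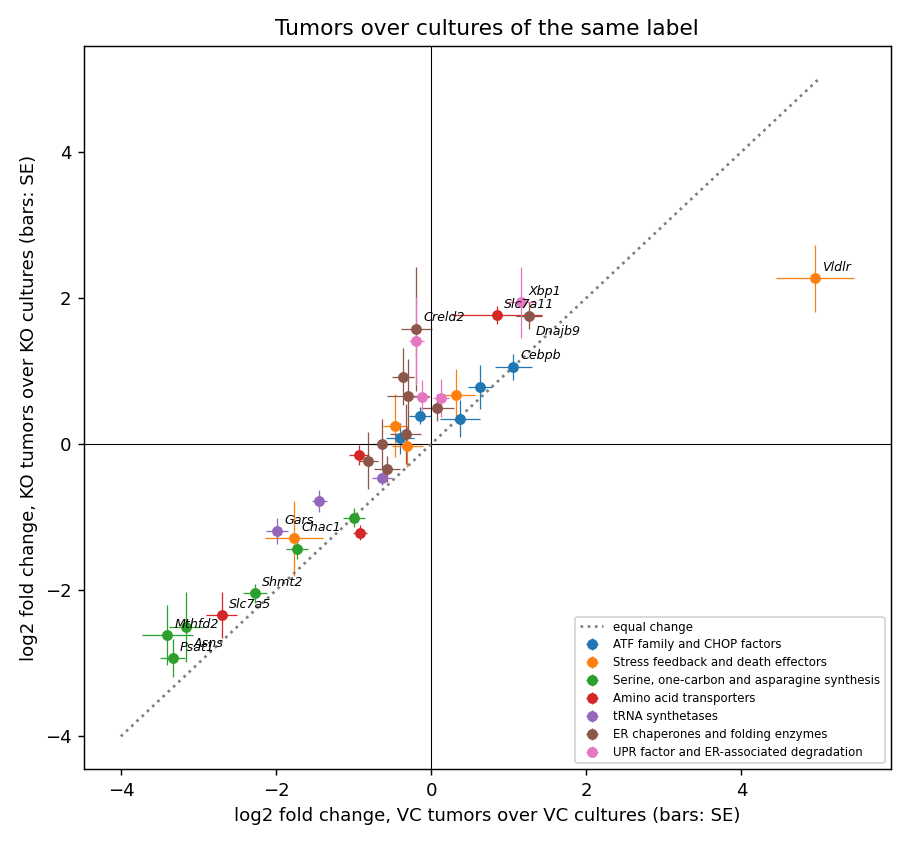
Log2 fold change of tumors over cultures for each of the 36 genes in control-labelled (horizontal) and knockout-labelled (vertical) samples, with bars of 1 SE, colours by role and a dotted line of equal change. The 6 synthesis enzymes lie at the lower left, and Vldlr lies far to the right at 4.95 and 2.27.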

How the data were processed

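The authors deposited raw counts per gene, 1 table for the 6 cultures and 1 for the 6 tumors, and the counts were used unchanged. Libraries were made with KAPA RNA Hyper Prep and Ribo-Erase, per the labels' protocols. The submitters' processing notes name featureCounts 1.4.4, STAR 2.3.0e, Trimmomatic 0.32 and the build mm10. The counting by strand and the annotation are not given in the sources used here, so overlapping genes are less certain.

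Counts were tested in R 4.3.3 with edgeR 4.0.16 (filterByExpr, TMM, quasi-likelihood test, Benjamini-Hochberg adjustment over all genes tested, called under 0.05). Each pair of groups was fitted apart, and the difference of effects as an interaction over 12 samples. All 36 genes passed the filter in each fit. The SE was taken from the F statistic and the log2 fold change. CPM used total counts. The steps were also run on simulated counts with planted changes of known size. Apart from those changes, each gene had the same expected share in every simulated library. The run therefore cannot tell how the steps handle chromosome-wide shifts or single outlying tumors. Genes were placed by Ensembl ID through GENCODE M21 (GRCm38, the same assembly as mm10), and motif letters were searched with Python 3.11.15 and pandas 2.3.3. Chromosome medians used the genes whose mean log2 CPM reached 3.

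The 36 genes, the pathway and marker lists and the tests were chosen with earlier results of these data known. The text names Pogz, the 36 genes, and per pathway list up to 3 genes of smallest p called in culture. Alternatives were RLE scaling, other filters, DESeq2 1.42.0, limma-voom (limma 3.58.1), a test against a fold change of 1.2, 1 fit of all samples, a replicate block, chromosome medians out, thinned tumor libraries, and leaving out each library.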

Additional observations from a re-analysis of the deposited data

Results flagged for a closer look

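The effect of the label differed between tumors and cultures for Got1 by the interaction test, with a difference of 0.82 ± 0.16 on the log2 scale (edgeR, Benjamini-Hochberg adjusted p = 0.0212). Culture and tumor had log2 fold changes of -0.48 ± 0.05 and 0.34 ± 0.17. Over the alternatives the adjusted p ran from 0.000574 to 0.0792, and it was above 0.05 when any 1 of the 6 cultures was left out (0.0576 to 0.0792) or when a fold change of 1.2 was tested (0.0618).

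Nupr1 differed between tumors and cultures in the same test, at -0.94 ± 0.20 (adjusted p = 0.0366), with 0.21 ± 0.06 in culture and -0.74 ± 0.19 in tumors. Its adjusted p ran from 0.000929 to 0.124 over the alternatives, and was above 0.05 when any culture or any control-labelled tumor was left out (0.0526 to 0.124) or when a fold change of 1.2 was tested (0.0791). The culture value lost its own call without knockout-labelled culture 2 (adjusted p = 0.0575). Both genes were looked at because they passed, so their sizes are a description.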

How the results depend on the processing

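Of the 36 genes, the number called in culture was 27 and lay between 24 and 29 under RLE scaling, other filters, DESeq2, limma-voom, chromosome medians taken out and leaving out each culture (24 to 26). The share of all genes called was 47.9% and ran from 30.3% to 50.3% under these. Of the 36 genes, 16 were called when a fold change of 1.2 was tested (19.6% of all genes) and 5 with all 12 samples in 1 fit (8.15%). Numbers of the cultures did not pair them (correlations of same-numbered deviations -0.122, 0.00261 and 0.058), and with the replicate block 25 genes were called, and 7237 of all genes, with the calls of Cebpb and Sel1l lost (adjusted p = 0.0519 and 0.0638). With the chromosome medians out, Cebpb was at -0.07, Sesn2 at 0.10, Phgdh at -0.21, Psph at -0.024, Slc7a1 at -0.008, Sars at -0.30 and Sec61a1 at 0.016, all on the other side of 0. That alternative subtracts the median by construction.

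In tumors 0 of the 36 genes were called under every alternative. Trib3 was at 0.39 with thinned libraries, Sesn2 at -0.01 and Psph at -0.011 with limma-voom, and Psph at -0.001 with all 12 samples. Over all genes, 66 were called by DESeq2 and 64 with all 12 samples. For the difference of effects, DESeq2 called 2 (5.17% of all genes), and leaving out 1 library gave 0 to 6 (0.777% to 8.31% of all genes). In control-labelled tumors over cultures, Pdia6 was at -0.071 and Sel1l at -0.025 with no filter. In knockout-labelled ones, Atf4 was at -0.009 and Manf at -0.09 with no filter, Hsp90b1 at -0.05 and Manf at -0.12 with limma-voom, and Manf at -0.018 with all 12 samples. The cause of these changes was not tested. The number called ran from 20 to 27 in control-labelled and from 16 to 27 in knockout-labelled tumors over cultures when 1 library was left out. Over all genes the share called then ran from 56.8% to 66.5% and from 48.7% to 68.1%.

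Values that crossed 0 when 1 library was left out are given by their lowest and highest. Between the labels in tumors these were Atf4 -0.25 to 0.17, Cebpb -0.082 to 0.49, Trib3 -0.65 to 0.29, Chac1 -0.73 to 0.48, Sesn2 -0.14 to 0.32, Ppp1r15a -0.25 to 0.44, Vldlr -1.04 to 0.084, Psat1 -0.49 to 0.051 and Psph -0.11 to 0.1. Further tumor values were Mthfd2 -0.77 to 0.11, Slc7a11 -0.85 to 0.78, Slc7a5 -0.64 to 0.006, Gars -0.25 to 0.095, Hspa5 -0.04 to 0.35, Hsp90b1 -0.47 to 0.51, Pdia4 -0.2 to 0.67, Pdia6 -0.14 to 0.3 and Dnajb9 -0.036 to 0.32. The remaining tumor values were Hyou1 -0.27 to 0.64, Sdf2l1 -0.096 to 1.09, Creld2 -0.36 to 1.91, Manf -0.14 to 0.64, Xbp1 -0.22 to 0.93, Herpud1 -0.1 to 0.39, Edem1 -0.11 to 1.39, Sel1l -0.059 to 0.5 and Pogz -0.068 to 0.25. For the difference of effects they were Atf3 -0.17 to 0.39, Ddit3 -0.26 to 0.35, Cebpb -0.26 to 0.32, Chac1 -0.087 to 1.11, Ppp1r15a -0.044 to 0.62, Psph -0.16 to 0.049, Slc7a5 -0.042 to 0.6, Hspa5 -0.005 to 0.4 and Hsp90b1 -0.24 to 0.73. The other differences were Hyou1 -0.057 to 0.84, Creld2 -0.085 to 2.18 and Xbp1 -0.08 to 1.06. In control-labelled tumors over cultures they were Ddit3 -0.061 to 0.51, Slc7a11 -0.42 to 1.21, Pdia6 -0.16 to 0.29, Creld2 -0.38 to 0.007 and Sel1l -0.016 to 0.17. In knockout-labelled tumors over cultures they were Atf4 -0.16 to 0.28, Trib3 -0.38 to 0.49, Sesn2 -0.26 to 0.21, Hsp90b1 -0.59 to 0.43, Hyou1 -0.88 to 0.066, Sdf2l1 -0.29 to 0.95, Creld2 -0.3 to 2.02 and Manf -0.56 to 0.26.

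Tumor libraries held 4712001 to 13043831 counts, and their spread limits what can be seen there.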
